A study of Mus musculus with 12 samples.

Results

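Blood clotting on and around macrophages, and the removal of fibrin that follows it, were described here through 9 listed genes: F3, F7, F10, Thbd, Procr, Pros1, Plau, Plaur and Serpinb2. They were found by symbol among the 43430 genes of an RNA-seq expression table, and all 9 were in it. Of these, 7 were high enough to be tested (4 or more of the 12 libraries at 1 RPKM or above, a filter that 11419 genes passed). The tested members were F7, F10, Thbd, Procr, Pros1, Plau and Plaur. F3 stayed under the filter, and Serpinb2 was at 0 in every library.

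The libraries were made from polyadenylated RNA of alveolar macrophages, which live in the air spaces and clear particles and debris, in a mouse lung transplant model. There were 4 libraries from naive lungs, 4 from lungs sampled 2 h after reperfusion and 4 from lungs sampled 24 h after reperfusion, when blood flow is let back into the transplanted lung. Every library, naive ones included, is labelled Cx3cr1gfp/+B6, male and 14 weeks of age, so that all groups share an allele in which green fluorescent protein replaces Cx3cr1. No other treatment is labelled, titles of the 2 h and 24 h libraries contain an unexplained Allo, and whether a labelled genotype is that of donor or recipient is not given in the sources used here.

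Clotting is started when tissue factor (F3) on a cell surface binds factor VII (F7), and the complex activates factor X (F10), which goes on to form thrombin. Thrombomodulin (Thbd) and the endothelial protein C receptor (Procr) turn thrombin's activity towards protein C, which, once activated and with protein S (Pros1) as its cofactor, shuts the cascade down. Fibrin is removed by plasmin, made from plasminogen by urokinase (Plau) held on its receptor (Plaur) and restrained by inhibitors such as PAI-2 (Serpinb2). Macrophages are known as carriers of tissue factor and of the urokinase receptor, and fibrin in the air spaces is a known feature of injured lungs.

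The main patterns are carried by Plaur, which moved in opposite directions at the 2 time points, and by Pros1, which fell at both. F7 was the single tested member to rise at 24 h against 2 h. That rise was smaller (1.2-fold), passed in 19 of 22 other settings, and F7 did not pass against naive. The 250 bases upstream of the start sites of these 3 genes are given here so that the letters stand beside the values. RefSeq's promoter table on GRCm38.p6 held 7 of the 9 members. Thbd and Plau had no entry. The sequences run 5′ to 3′ on the + strand, that of all 3 genes, and capitals mark motif matches.
Plaur, chr7:24462233-24462482: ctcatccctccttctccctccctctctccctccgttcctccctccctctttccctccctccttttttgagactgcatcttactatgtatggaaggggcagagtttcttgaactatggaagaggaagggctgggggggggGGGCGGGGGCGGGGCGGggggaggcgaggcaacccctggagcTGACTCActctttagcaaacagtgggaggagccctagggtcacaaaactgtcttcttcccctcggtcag
Pros1, chr16:62854057-62854306: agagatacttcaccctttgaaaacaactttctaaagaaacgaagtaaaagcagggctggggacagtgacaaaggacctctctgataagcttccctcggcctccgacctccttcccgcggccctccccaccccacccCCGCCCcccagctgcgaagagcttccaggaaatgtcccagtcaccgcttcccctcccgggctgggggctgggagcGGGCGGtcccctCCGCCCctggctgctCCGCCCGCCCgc
F7, chr8:13025784-13026033: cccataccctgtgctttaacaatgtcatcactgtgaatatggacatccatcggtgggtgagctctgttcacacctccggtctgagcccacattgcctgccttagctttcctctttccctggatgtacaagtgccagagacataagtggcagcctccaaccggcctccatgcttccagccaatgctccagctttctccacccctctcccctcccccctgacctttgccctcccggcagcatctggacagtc
The motifs searched for, on both strands, were the AP-1 element TGANTCA, the cyclic AMP element TGACGTCA, the GC box GGGCGG, the EGR element GCGTGGGCG, the TATA box TATAAA, the E-box CACGTG and the NF-kappaB element. The Plaur window held an AP-1 element at -69 from the start and 3 GC boxes at -111, -105 and -100, whose letters adjoin or overlap. The Pros1 window held 5 GC boxes and no other match, and the 2 nearest the start overlap. The F7 window held no match. AP-1 elements were in 6.75% of 32851 promoter windows of this length and GC boxes in 32.7%. Among the other members, Procr had an AP-1 element at -154, F3 had 2 AP-1 elements and 3 GC boxes, Serpinb2 had an AP-1 element and a TATA box, and F10 had no match. These matches describe letters and say nothing of a factor's binding.

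Values are RPKM, read counts divided by gene length and by library size, as the authors deposited them. Library totals recovered from the steps of these values were 6112586 to 8796071 reads in naive, 7242824 to 10347265 at 2 h and 9129420 to 11997945 at 24 h. All 12 alveolar macrophage markers examined, among them Siglecf and Marco, were high enough to be tested, with summed RPKM of 11535 to 11931 in naive, 7899 to 9193 at 2 h and 9573 to 11500.4 at 24 h, sums made up mostly of Chil3. Of the 12, 1 rose and 4 fell at 2 h against naive, and 2 rose and 7 fell at 24 h against naive. The shares over all tested genes were 14.7% rising and 22.0% falling at 2 h. At 24 h they were 25.3% and 20.6%. Siglecf fell at 24 h to 27.1 ± 7.27 RPKM, against 58.3 ± 3.15 in naive, and Marco rose to 398 ± 25.8, against 94.9 ± 10.6 (SD, n = 4 each; limma adjusted p = 0.000167 and 3.56e-06). The part of these moves in the members' differences was not tested. Endothelial markers summed to 0.545 to 3.01, 0.716 to 1.01 and 0.335 to 0.716 RPKM over the same groups, and none of 8 passed the filter. H2-Ea-ps, a class II gene whose expression C57BL/6 mice are known to lack, had 0.046 ± 0.0919 RPKM in naive, 23.1 ± 3.19 at 2 h and 3.37 ± 2.06 at 24 h (SD, n = 4 each). This gene was chosen after its values were seen, and its level at 2 h, and less so at 24 h, goes against the B6 label. Ifi202b, another gene looked at to check the label, had 0 RPKM in naive, 2.0 ± 0.232 at 2 h and 0.0459 ± 0.0611 at 24 h (SD, n = 4 each), the last on 3 reads. Time after reperfusion and the difference in H2-Ea-ps cannot be told apart in comparisons with the libraries labelled 2 h or 24 h. The labels do not tie libraries to different animals, and the p-values below therefore reflect library-to-library spread that may be technical. In such bulk libraries fewer cells of a type and less RNA per cell cannot be told apart.

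Counted together, Plaur and Pros1 changed at 2 h against naive, and Procr, Pros1 and Plaur at 24 h. Comparing 2 h with naive, 1 of 7 tested members rose (Plaur), 1 fell (Pros1) and 5 did not pass. Over all tested genes 14.7% rose and 22.0% fell, 36.7% in all. These members were also the ones whose libraries did not overlap, where 14.0% of all genes lay wholly above naive and 20.5% wholly below. The median log2 fold change was 0.09 for the members, against -0.04 for all genes tested. Comparing 24 h with naive, 0 rose, 3 fell (Procr, Pros1 and Plaur) and 4 did not pass, with 25.3% of all tested genes rising and 20.6% falling, 45.9% in all. The same 3 members lay wholly below naive, as 22.0% of all genes did, and 0 lay wholly above, against 25.8%. The median was -0.27 for the members and 0.00 for all genes. Comparing 24 h with 2 h, 1 rose (F7), 4 fell (Procr, Pros1, Plau and Plaur) and 2 did not pass, where 30.9% of all tested genes rose and 21.5% fell, 52.5% in all. F7 lay wholly above 2 h and those 4 wholly below, against 27.5% and 18.2% of all genes, with medians of -0.54 for the members and 0.05 for all genes. Procr passed the filter through naive and 2 h libraries only, so its place in the counts and medians of both 24 h comparisons is tied to that filter. The member median of -0.54 at 24 h against 2 h is the value of Procr itself. The comparisons share libraries, so their counts are not independent of each other, and with 7 genes the shares are given as a description.

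The genes that start clotting behaved unlike each other, with F3 close to 0 and F7 among the most abundant members. F3 (ENSMUSG00000028128, chromosome 3, 121723537 to 121735048, + strand), the cell-surface receptor that starts the cascade, was listed at 0, 0, 0.142 and 0.0872 RPKM in naive. At 2 h it was at 0.207, 0.0515, 0.062 and 0.147 RPKM, and at 24 h at 0, 0.0492, 0.168 and 0 RPKM. These values rest on 3, 8 and 4 reads in all 4 libraries of naive, 2 h and 24 h, and no library had more than 4. The groups overlapped in every comparison. The exact permutation test (two-sided, 4 against 4 libraries, smallest possible p of 0.0286) gave p = 0.286 for 2 h against naive, 1 for 24 h against naive and 0.257 for 24 h against 2 h (adjusted over the 3, 0.429, 1 and 0.429). Pooled over libraries, F3 was at 0.0527 RPKM in naive (exact Poisson 95% interval 0.0109 to 0.154), 0.117 at 2 h (0.0505 to 0.23) and 0.0514 at 24 h (0.014 to 0.132). A difference in F3 was therefore not detectable at this depth, and the intervals cover counting error only.

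F7 (ENSMUSG00000031443, chromosome 8, 13026034 to 13035809, + strand) encodes the protease that tissue factor binds, which the liver makes for the blood. It was at 284, 244, 274 and 238 RPKM in naive, 237, 261, 259 and 247 at 2 h, and 309, 344, 278 and 272 at 24 h. All 4 libraries at 24 h lay above all 4 at 2 h, while naive libraries overlapped with both. F7 rose 1.2-fold at 24 h against 2 h (log2 fold change 0.25 ± 0.08, SE, limma adjusted p = 0.019). That call was lost under median-ratio scaling (log2 fold change 0.20, limma adjusted p = 0.055), without 2 h replicate 1 (0.23) and without 24 h replicate 2 (0.19). Against naive, F7 at 24 h averaged 300.5 ± 33.1 RPKM, against 260.2 ± 22.2 (SD, n = 4 each; log2 fold change 0.20, limma adjusted p = 0.0545), and this difference did not pass. It passed without naive replicate 1 (0.25), without 24 h replicate 3 (0.24), without 24 h replicate 4 (0.25) and with a filter at 5 RPKM (0.20). At 2 h F7 was within the naive spread apart from a single library just below it (log2 fold change -0.05, limma adjusted p = 0.666).

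F10 (ENSMUSG00000031444, chromosome 8, 13037308 to 13056676, + strand) encodes factor X, the protease that makes thrombin, and lies 1498 bases beyond F7 on the same strand. It was at 22.7, 21.7, 21.0 and 18.8 RPKM in naive, 20.6, 28.0, 28.2 and 21.7 at 2 h, and 24.3, 29.7, 19.6 and 18.6 at 24 h. The groups overlapped in every comparison and none passed (limma adjusted p = 0.284 for 2 h against naive, 0.579 for 24 h against naive and 0.587 for 24 h against 2 h). The 95% intervals of the log2 differences ran from -0.11 to 0.52 for 2 h against naive and from -0.21 to 0.42 for 24 h against naive. The coefficient of variation of F10 was 7.9% in naive, 16.3% at 2 h and 22.0% at 24 h, and counting error alone gives 2.36% to 2.85%. A transcript of F10 shares a stretch of at most 159 bases, at least 90% identical, with transcripts of 172 other genes, so a few of its reads may have been assigned uncertainly. Proz, the gene of protein Z and the next of these coagulation genes along the chromosome (4237 bases beyond F10), averaged 1.55 ± 0.363 RPKM in naive, 2.42 ± 0.873 at 2 h and 1.47 ± 0.171 at 24 h (SD, n = 4 each).

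**Figure D1:**
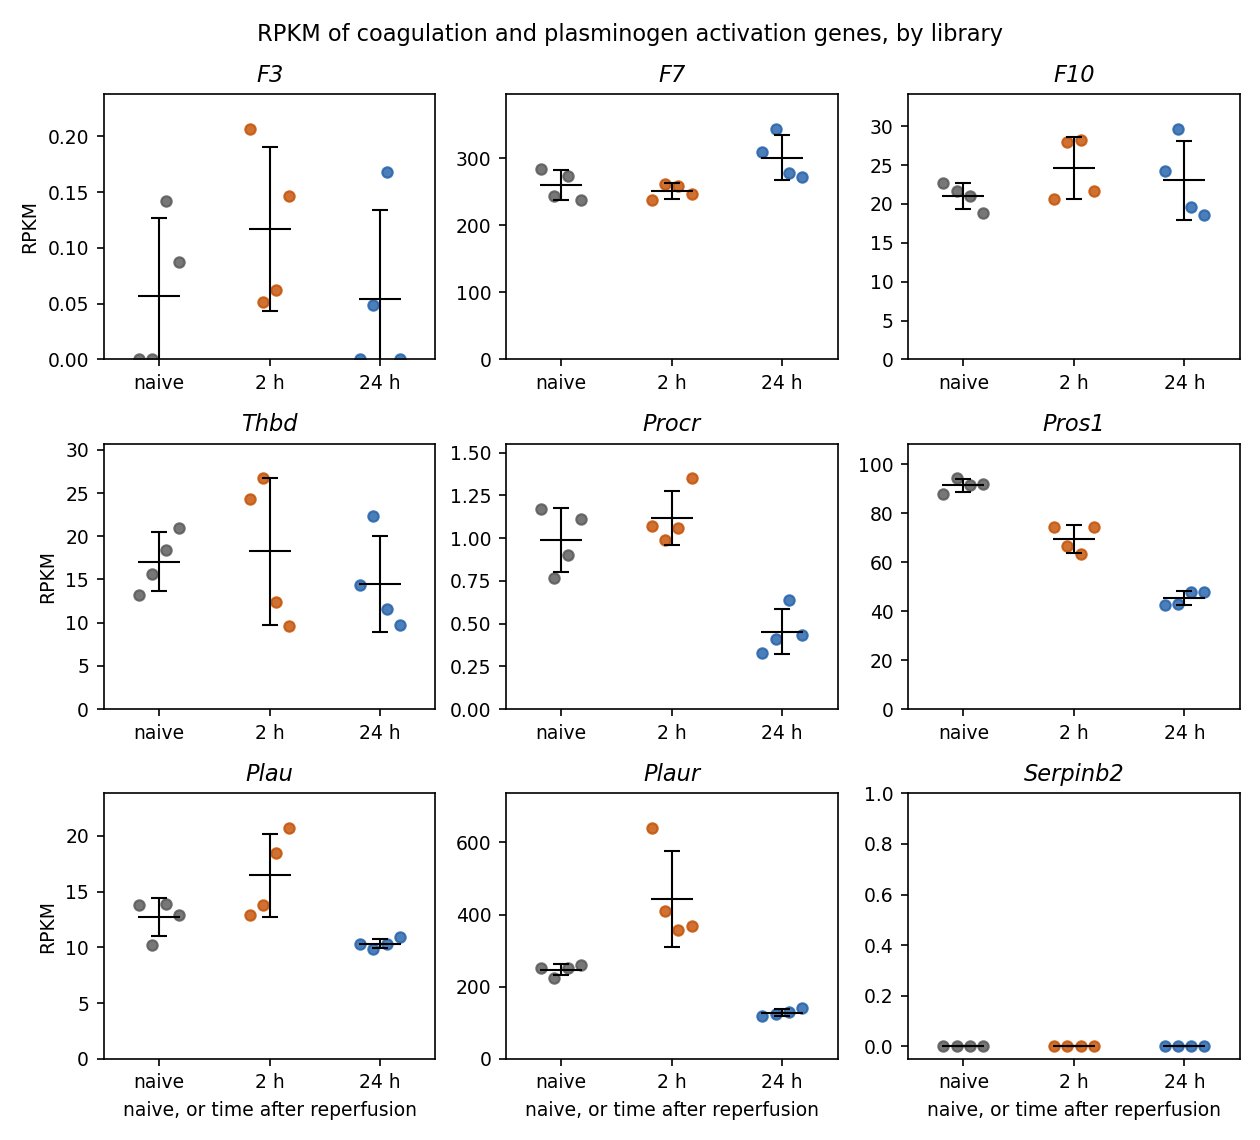
RPKM of each of the 9 genes (vertical axis, linear and separate for each gene) in the 4 libraries of naive, 2 h and 24 h (points), with the mean and SD as a bar and whiskers. Plaur at 2 h sits between 358 and 639.9 RPKM, above all naive libraries, Pros1 steps down at each time, and Serpinb2 is at 0 throughout.

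The anticoagulant genes divided into a variable one, Thbd, and 2 that fell, Procr and Pros1. Thbd (ENSMUSG00000074743, chromosome 2, 148404466 to 148408188, - strand) encodes thrombomodulin, the surface receptor that turns thrombin from clotting to the activation of protein C. It was at 13.2, 15.6, 18.4 and 21.0 RPKM in naive, 24.3, 26.7, 12.4 and 9.64 at 2 h, and 14.4, 22.3, 11.6 and 9.74 at 24 h. At 2 h replicates 1 and 2 lay above every naive library and replicates 3 and 4 below every one. No comparison passed (limma adjusted p = 0.995, 0.526 and 0.513 for 2 h against naive, 24 h against naive and 24 h against 2 h). The 95% interval of the log2 difference between 2 h and naive was -0.69 to 0.69, so changes of moderate size in either direction are within it. The coefficient of variation was 19.8% in naive, 46.4% at 2 h and 38.0% at 24 h, while counting error alone gives 4.4% to 4.61%.

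Procr (ENSMUSG00000027611, chromosome 2, 155751117 to 155755471, + strand), the receptor that presents protein C to thrombomodulin, was the lowest of the tested members. It was at 1.17, 0.765, 0.904 and 1.11 RPKM in naive, 1.07, 0.992, 1.06 and 1.35 at 2 h, and 0.331, 0.409, 0.637 and 0.434 at 24 h. All 24 h libraries lay below all others, and naive and 2 h libraries overlapped. Procr fell at 24 h to 0.453 ± 0.13 RPKM, against 0.986 ± 0.185 in naive (SD, n = 4 each; ratio of means 0.459, log2 fold change -0.45 ± 0.10, SE, limma adjusted p = 0.00304). It also fell at 24 h against 2 h (ratio 0.405, log2 fold change -0.54 ± 0.10, SE, limma adjusted p = 0.000676). These log2 values are of RPKM + 1 and understate the change of so low a gene. With a pseudocount of 0.1 they were -0.99 and -1.16, and with voom on recovered reads -1.16 and -1.39. At 2 h against naive Procr did not pass (log2 fold change 0.09, limma adjusted p = 0.486). The values rest on 128 reads in naive, 172 at 2 h and 79 at 24 h, and Procr passed the filter through 5 libraries, of which none was at 24 h. Procr is a known endothelial gene, and the endothelial marker Cdh5 averaged 0.592 ± 0.329 RPKM in naive, 0.319 ± 0.0801 at 2 h and 0.219 ± 0.0918 at 24 h (SD, n = 4 each). The part of endothelial RNA in the Procr difference was not tested.

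Pros1 (ENSMUSG00000022912, chromosome 16, 62854307 to 62929346, + strand) encodes protein S, the cofactor of activated protein C and a ligand of the receptors Mertk and Tyro3. It was at 87.8, 94.2, 91.6 and 91.9 RPKM in naive, 74.4, 66.4, 63.2 and 74.4 at 2 h, and 42.5, 42.9, 47.7 and 47.7 at 24 h. The 3 groups did not overlap at all, and each later time was lower than the one before. Pros1 fell at 2 h to 69.6 ± 5.68 RPKM, against 91.4 ± 2.62 in naive (SD, n = 4 each; ratio 0.762, log2 fold change -0.39 ± 0.06, SE, limma adjusted p = 0.000777). It fell at 24 h to 45.2 ± 2.88 RPKM (ratio to naive 0.494, log2 fold change -1.0 ± 0.06, SE, limma adjusted p = 2.2e-07). The fall at 24 h against 2 h had a ratio of 0.649 (log2 fold change -0.61 ± 0.06, SE, limma adjusted p = 8.74e-06). All 3 calls were kept in each of 22 other settings, with log2 fold changes of -0.42 to -0.34 for 2 h against naive. Pros1 is also known from platelets and endothelium. The 9 platelet markers, of which 2 were tested, summed to 6.62 to 10.3 RPKM in naive, 3.84 to 6.93 at 2 h and 2.33 to 5.07 at 24 h. These sums were mostly Clec1b (4.88, 2.75 and 1.94 RPKM on average in naive, 2 h and 24 h) and Pf4 (2.59, 1.04 and 0.927). The other platelet markers were all under the filter, and the list moved both ways at 2 h. Gp1ba averaged 0.198 RPKM in naive, 0.61 at 2 h and 0.203 at 24 h, and Itga2b 0.0768, 0.182 and 0.0651. Gp9 (0.0412, 0.234 and 0.116) and Treml1 (0.0328, 0.282 and 0.18) were also highest at 2 h, on 7 and 12 reads there. Ppbp, Gp1bb and Gp6 did not average higher at 2 h than in naive. The part of platelet RNA in the Pros1 difference was not tested.

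The genes of plasminogen activation showed the widest swing of the group in Plaur. Plaur (ENSMUSG00000046223, chromosome 7, 24462484 to 24475968, + strand) encodes the urokinase receptor, a lipid-anchored surface protein that holds urokinase on the cell. It was at 253, 225, 252 and 260.2 RPKM in naive, 639.9, 411, 358 and 367 at 2 h, and 118, 125, 129 and 141 at 24 h. All libraries at 2 h were above all naive libraries, all at 24 h were below them, and 2 h replicate 1 stood highest. Plaur rose at 2 h to 444 ± 133 RPKM, against 247 ± 15.3 in naive (SD, n = 4 each; ratio 1.79, log2 fold change 0.80 ± 0.15, SE, limma adjusted p = 0.00191). It fell at 24 h to 128 ± 9.7 RPKM, against the same naive level (ratio 0.519, log2 fold change -0.94 ± 0.15, SE, limma adjusted p = 0.000347). For 24 h against 2 h the ratio was 0.289 (log2 fold change -1.74 ± 0.15, SE, limma adjusted p = 2.01e-06). These calls were kept in each of 22 other settings, where the log2 fold change at 2 h against naive ran from 0.61 to 0.89.

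Plau (ENSMUSG00000021822, chromosome 14, 20836660 to 20843385, + strand) encodes urokinase, the protease that cuts plasminogen to plasmin. It was at 13.8, 10.2, 13.9 and 12.9 RPKM in naive, 12.9, 13.8, 18.5 and 20.7 at 2 h, and 10.3, 9.88, 10.3 and 10.9 at 24 h. At 2 h, 2 libraries exceeded every naive library and the other two were within the naive range, and at 24 h all were below all 2 h libraries. Plau fell at 24 h to 10.3 ± 0.415 RPKM, against 16.5 ± 3.75 at 2 h (SD, n = 4 each; ratio 0.628, log2 fold change -0.60 ± 0.14, SE, limma adjusted p = 0.00325). At 2 h against naive the difference did not pass (ratio 1.3, log2 fold change 0.33 ± 0.14, SE, limma adjusted p = 0.0773). It passed without 2 h replicate 1 (log2 fold change 0.44, limma adjusted p = 0.0266), with median-ratio scaling (0.38) and with voom on recovered reads (0.39). The difference of 24 h from naive did not pass either (ratio 0.814, log2 fold change -0.26, limma adjusted p = 0.139), but it did with those groups fitted alone (limma adjusted p = 0.0381).

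Serpinb2 (ENSMUSG00000062345, chromosome 1, 107511423 to 107535478, + strand), the gene of PAI-2, an inhibitor of urokinase that stimulated macrophages are known to make, had 0 reads in every library. That is 0 of 108278614 reads in all, which allows a level of up to 0.0118 RPKM over the 12 libraries pooled, taken as 3 reads, and of 0.106 to 0.209 RPKM in a single library. It overlaps 176 exon bases of Serpinb10 on the same strand, and Serpinb10 itself was at 0.0226 RPKM at most.

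Neutrophils are known to carry Plaur and Plau too. Of 7 neutrophil markers 4 were tested, and they moved in different directions. S100a8 was at 7.93 to 12.8 RPKM in naive, 7.89 to 14.8 at 2 h and 27.8 to 33.8 at 24 h, whereas Csf3r was at 6.02 to 7.77, 3.96 to 6.62 and 1.28 to 2.61 RPKM in the same groups. At 24 h against naive S100a8 rose (limma adjusted p = 5.83e-05), Csf3r fell (limma adjusted p = 3.99e-05), and Mmp8 and Cxcr2 did not pass. Mmp8 averaged 12.3 ± 1.28 RPKM in naive, 13.9 ± 2.46 at 2 h and 9.84 ± 0.956 at 24 h (SD, n = 4 each), and it fell at 24 h against 2 h (limma adjusted p = 0.00627). The summed list ran from 26.2 to 34.9 RPKM in naive, 28.1 to 40.4 at 2 h and 41.7 to 47.7 at 24 h. Ly6g, the defining surface marker, had 0 reads in naive, 1 at 2 h and 0 at 24 h. The part of neutrophil RNA in the Plaur and Plau differences was not tested.

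**Figure D2:**
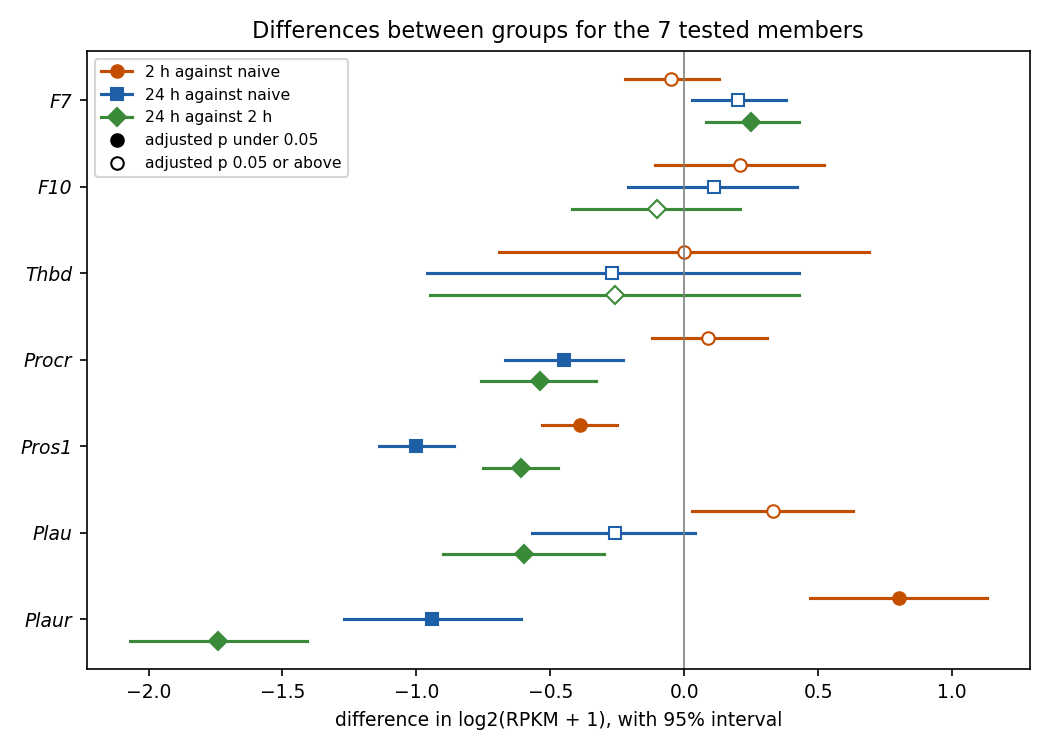
Difference in log2(RPKM + 1) between groups (horizontal axis) with its 95% interval, for the 7 tested members and the 3 comparisons. Filled symbols have a limma adjusted p under 0.05. Plaur lies right of 0 at 2 h against naive and left of 0 in both 24 h comparisons, Pros1 lies left of 0 in all 3, and the widest intervals are those of Thbd.

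Levels of different genes were compared on a length-adjusted RPKM, because the deposited RPKM divide many genes by more than their merged exons. The length used was the shorter of the merged exons and the length implied by the RPKM. For Plaur this was 1396 bases, although its merged exons span 2617, while F7 had 1859 on both. The rank of Plaur, such as that against F7 in naive and at 2 h, therefore depends on this choice. On this scale the order in naive was F7 (260.2 ± 22.2), Plaur (247 ± 15.3), Pros1 (111 ± 3.18), F10 (60.6 ± 4.78), Thbd (17.1 ± 3.38), Plau (12.7 ± 1.75), Procr (2.08 ± 0.391) and F3 (0.0574 ± 0.07), with SD over 4 libraries. F7 and Plaur overlapped, as did Thbd and Plau, and F3 overlapped with Serpinb2 at 0. At 2 h Plaur led with 444 ± 133, above F7 with 251 ± 11.4, and Pros1 (84.4 ± 6.88) overlapped with F10 (70.9 ± 11.6). At 24 h F7 led with 300.5 ± 33.1, Plaur followed with 128 ± 9.7, and F10 (66.4 ± 14.6) and Pros1 (54.8 ± 3.5) overlapped. In each group the library ranges of Thbd and Plau overlapped, and Procr stayed below both.

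**Figure D3:**
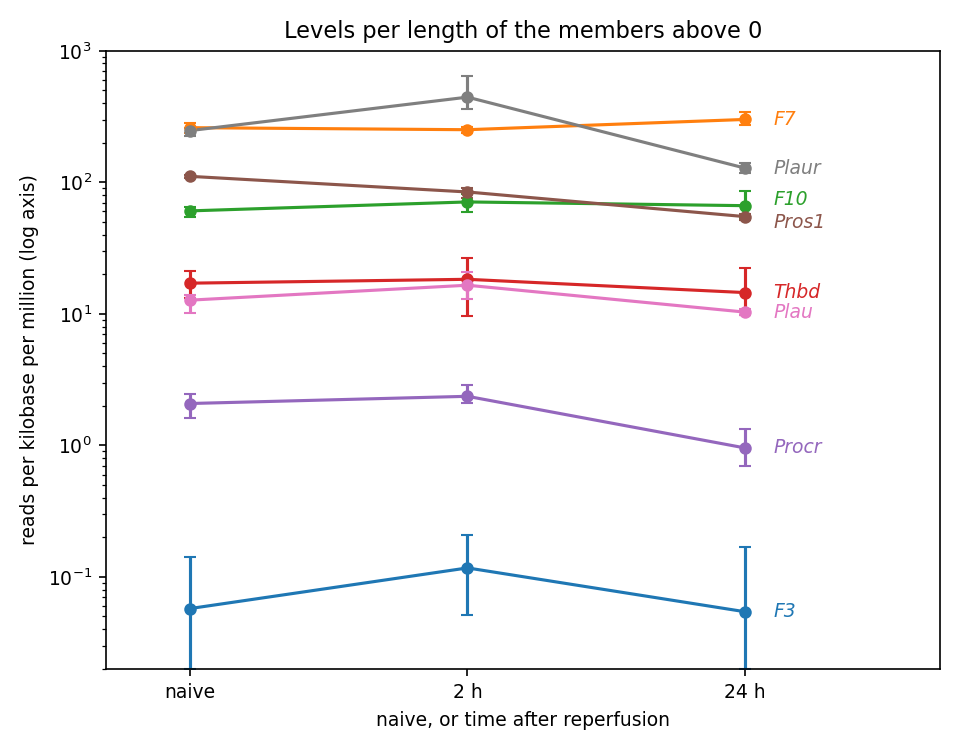
Length-adjusted RPKM (vertical log axis) of the 8 members above 0 in naive, 2 h and 24 h. Points are means of 4 libraries and whiskers span the lowest to the highest library, running to the foot of the axis where the lowest is 0. On the length used for it (1396 bases, against merged exons of 2617), Plaur is above F7 at 2 h and below it at 24 h. F3 lies far under the rest.

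The genes whose values followed each tested member most closely over the 12 libraries were found by Pearson's r of log2(RPKM + 1), given as a description since libraries of a group share their time point. Plaur was followed by Prkx (0.982), Selenon (0.981) and Crtc3 (0.98). For Pros1 the nearest were Iqgap2 (0.99), Rnase4 (0.99) and Agmo (0.986), and for Procr they were Csnk1d (0.956), Dram1 (0.951) and Senp6 (0.948). Those of Plau were Ptger4 (0.912), a prostaglandin E2 receptor, Mmp8 (0.91), a collagenase and a listed neutrophil marker, and Ubr1 (0.882). F7 was nearest to Slc36a1 (0.936), Mto1 (0.923) and Msrb1 (0.921), and F10 to Bcl3 (0.917), Adap1 (0.891) and Plekhm2 (0.889). Thbd was nearest to Fos (0.83), an immediate early transcription factor, Hspa2 (0.786) and Rgs1 (0.784). Fos also ranged widely at 2 h, from 105 to 403 RPKM. Between the neighbours F7 and F10, r was 0.5.

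Beyond the members, 62 further genes of clotting and fibrin removal were examined, of which 25 were tested. At 2 h against naive 1 rose, 7 fell and 17 did not pass (median log2 fold change -0.04), and at 24 h against naive 4 rose, 11 fell and 10 did not pass (median -0.17). Between 24 h and 2 h 7 rose, 11 fell and 7 did not pass (median -0.11). Over all tested genes, 14.7% rose and 22.0% fell at 2 h against naive, and 25.3% rose and 20.6% fell at 24 h against naive. Between 24 h and 2 h 30.9% rose and 21.5% fell. The counts of each list below stand beside these shares, and lists of so few tested genes allow a description only.

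A list of 5 other protease inhibitors was drawn up around plasminogen activators and plasmin, and 2 were tested. At 2 h against naive 0 passed, and at 24 h against naive 1 fell. Serpinb6a, an intracellular protease inhibitor, fell at 24 h to 9.92 ± 0.431 RPKM, against 11.7 ± 0.855 in naive (SD, n = 4 each; log2 fold change -0.21, limma adjusted p = 0.00995). It shares near-identical sequence with 6 other genes. Serpinb9, a related inhibitor, is listed without a claim that it acts on plasminogen activators or plasmin. It was at 1.37 to 1.63 RPKM in naive, 1.67 to 2.34 at 2 h and 1.52 to 1.73 at 24 h, and did not pass in any comparison.

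Among plasminogen receptors and fibrinolysis genes, 4 of 8 were tested, 0 rose and 2 fell at 2 h, and 1 rose and 2 fell at 24 h against naive. Eno1, alpha-enolase, a glycolytic enzyme that also binds plasminogen at the cell surface, rose at 24 h to 62.5 ± 9.92 RPKM, against 23.6 ± 1.24 in naive (SD, n = 4 each; log2 fold change 1.36, limma adjusted p = 5.17e-07). Its reads are uncertain, because 10 other genes hold near-identical sequence. Anxa2, annexin A2, which binds plasminogen together with S100a10, fell at 2 h and at 24 h against naive (log2 fold change -0.18 each, limma adjusted p = 0.00169 and 0.00124). Plgrkt, a plasminogen receptor of the plasma membrane, fell at 2 h against naive (log2 fold change -0.23, limma adjusted p = 0.0126). Plg, plasminogen itself, was listed at 0 in all libraries.

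Partners of the urokinase receptor and the receptor that clears it made a list of 8, of which 4 were tested. At 2 h 1 rose and 0 fell, and at 24 h against naive 0 rose and 2 fell. Lrp1, the endocytic receptor that takes up inhibited urokinase, fell at 24 h to 107 ± 3.79 RPKM, against 152 ± 9.43 in naive (SD, n = 4 each; log2 fold change -0.50, limma adjusted p = 1.23e-05). Itgb1, an integrin beta chain, fell at 24 h to 68.1 ± 3.38 RPKM, against 82.3 ± 2.64 in naive (SD, n = 4 each; limma adjusted p = 0.00131). Itgb2, the integrin beta chain of leukocytes, rose at 2 h to 247 ± 6.61 RPKM, against 228 ± 1.99 in naive (SD, n = 4 each; log2 fold change 0.12, limma adjusted p = 0.0187). That call was lost without naive replicate 3, 2 h replicate 2 or 2 h replicate 3 (log2 fold change 0.11 each).

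Of 4 listed receptors and ligands around protein S and Gas6, 2 were tested and both fell at 24 h against naive, and 1 fell at 2 h. Mertk, a receptor tyrosine kinase for the uptake of dying cells, fell to 56.2 ± 5.94 RPKM at 2 h, against 77.5 ± 3.44 in naive (SD, n = 4 each; log2 fold change -0.46, limma adjusted p = 0.00469). At 24 h Mertk was at 52.1 ± 7.69 RPKM (log2 fold change against naive -0.58, limma adjusted p = 0.000717). Axl, a related receptor that binds Gas6, fell at 24 h to 127 ± 17.1 RPKM, against 161 ± 3.04 in naive (SD, n = 4 each; limma adjusted p = 0.00661). At 2 h Axl did not pass (limma adjusted p = 0.376). Gas6 and Tyro3 were under the filter.

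Of 15 other coagulation factors and cofactors in the table, 4 were tested, and F12, F13b, Fga, Fgb, Fgg and Kng1 were listed at 0 in all libraries. F9, factor IX, whose 24 h libraries were all under 1 RPKM so that it passed the filter through the other groups, fell at 24 h to 0.477 ± 0.0949 RPKM, against 1.2 ± 0.268 in naive (SD, n = 4 each; log2 fold change -0.57, limma adjusted p = 0.000571, and -1.31 with voom on recovered reads). Mcfd2 and Lman1 encode the complex that carries factors V and VIII out of the endoplasmic reticulum. Mcfd2 fell at 2 h to 8.09 ± 0.449 RPKM, against 11.2 ± 0.531 in naive (SD, n = 4 each; limma adjusted p = 0.000265). Lman1 rose at 24 h to 11.2 ± 1.33 RPKM, against 8.97 ± 0.323 in naive (SD, n = 4 each; limma adjusted p = 0.00771). Of 10 other inhibitors of coagulation 2 were tested. Anxa5, which covers the phospholipid that clotting needs, fell at 24 h to 338 ± 5.67 RPKM, against 379 ± 5.04 in naive (SD, n = 4 each; log2 fold change -0.17, limma adjusted p = 0.000799). Its difference at 2 h against naive (log2 fold change -0.09, limma adjusted p = 0.0421) passed in 6 of 22 other settings. Tfpi, the inhibitor of the tissue factor complex, stayed under the filter at 0.756 ± 0.113 RPKM in naive, 0.615 ± 0.0603 at 2 h and 0.727 ± 0.0393 at 24 h (SD, n = 4 each). These values rest on 538, 531 and 716 reads, more than those of the tested Procr (128, 172 and 79). The filter is on RPKM, which divides by gene length, so its place under the filter does not mean few reads. The 4 thrombin and protease-activated receptors were all under the filter, with summed RPKM of 0.157 to 1.09 over the 12 libraries.

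Factors VII, IX and X and protein S need vitamin K-dependent carboxylation, and all 3 genes of that list were tested. Vkorc1l1, a vitamin K epoxide reductase with near-identical sequence in 3 other genes, fell at 2 h to 20.2 ± 2.33 RPKM, against 27.2 ± 1.98 in naive (SD, n = 4 each; log2 fold change -0.42, limma adjusted p = 0.00241). At 24 h it was at 22.4 ± 1.35 RPKM (log2 fold change against naive -0.27, limma adjusted p = 0.0181), a call lost without naive replicate 2 (-0.23) or 24 h replicate 1 (-0.24). Ggcx, the carboxylase, averaged 4.41 ± 0.733 RPKM at 24 h and 4.65 ± 0.369 in naive (SD, n = 4 each) and did not pass. The 4 genes that expose phosphatidylserine or bring tissue factor into its active form were all tested, with 0 rising and 1 falling at 2 h, and 2 rising and 0 falling at 24 h against naive. P4hb, protein disulfide isomerase, rose at 24 h to 199 ± 20.9 RPKM, against 144 ± 6.94 in naive (SD, n = 4 each; log2 fold change 0.45, limma adjusted p = 0.000171). Pdia3, a related isomerase, rose as well (log2 fold change 0.24, limma adjusted p = 0.036), a call lost without naive replicate 1 (0.22), naive replicate 3 (0.23), naive replicate 4 (0.24), or 24 h replicate 1 (0.24), 2 (0.17) or 4 (0.24), with no filter (0.24) and with equal totals (0.20). Xkr8, a lipid scramblase, passed the filter through naive and 24 h libraries alone, and a transcript of it shares a near-identical stretch with 150 other genes. It fell at 2 h to 0.665 ± 0.234 RPKM, against 1.31 ± 0.244 in naive (SD, n = 4 each; log2 fold change -0.48, limma adjusted p = 0.00732, and -1.0 with voom on recovered reads).

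**Figure D4:**
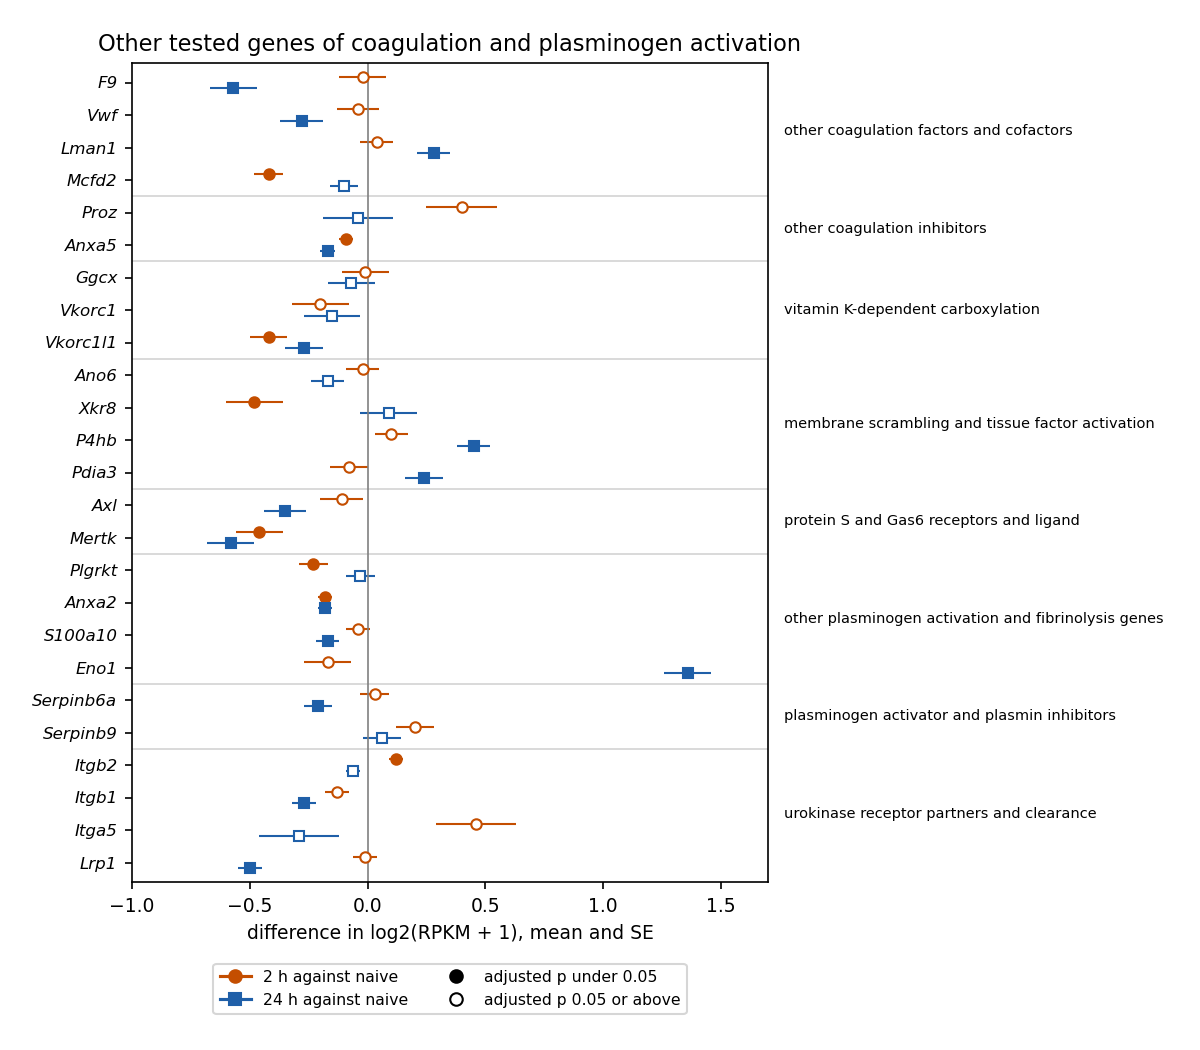
Difference in log2(RPKM + 1) from naive (horizontal axis, mean and SE) at 2 h and 24 h for the 25 tested further genes, grouped by list. Filled symbols have a limma adjusted p under 0.05. Eno1 at 24 h (1.36) stands farthest to the right, and Mertk and F9 lie farthest to the left at 24 h.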

How the data were processed

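RNA-seq of polyadenylated RNA from 12 libraries of alveolar macrophages was used. The authors deposited RPKM values per Ensembl gene. Per the submitters' processing notes, bcl2fastq, TopHat2, HTSeq and the build mm10 were used. No version, annotation, definition of gene length or filter is stated in those notes. Symbols and positions came from GENCODE on that assembly.

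The deposited RPKM values step by what a read is worth, which gave back whole reads for 100% of the 11419 tested genes (tolerance 0.02 of a read). The length implied by the RPKM equalled the summed length of all annotated transcripts in 63.8% of 24177 genes and the merged exons in 30.2%. RPKM of many genes with several transcripts is therefore understated. For Plaur, F3 and Plau the implied length was instead shorter than the merged exons (1396 against 2617, 1876 against 2527 and 2343 against 2367 bases). The choice of length does not touch ratios of mean RPKM within a gene. It does bear on the filter at 1 RPKM and on log2 fold changes of RPKM + 1, most of all for low genes. Procr, for instance, was divided by 4287 bases, against merged exons of 2031.

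All 12 libraries entered a fit of log2(RPKM + 1) in limma 3.58.1 (R 4.3.3) with a variance trend, for genes with at least 1 RPKM in at least 4 libraries. Two-sided p-values had Benjamini-Hochberg adjustment across all tested genes of a comparison, with a threshold of 0.05. Folds are ratios of mean RPKM, and log2 fold changes understate the change of low genes. F3 was tested by exact permutation (scipy 1.17.1), and near-identical transcripts were sought with BLAST 2.17.0 (at least 90% identity over at least 100 bases). The fit was tested on simulated data. Same-numbered libraries did not deviate together (r of -0.0426 to 0.0548 over 12 pairs), so numbers were not used as pairs. Alternatives were median-ratio scaling, equal totals, a filter at 5 RPKM or none, pseudocounts of 0.1 and 0.5, voom on recovered reads, no variance trend, the compared groups alone, a replicate block and each library left out.

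The members and lists were chosen with earlier results of these data known. In each list the genes with the 2 smallest p among those that passed, at 24 h and at 2 h against naive, are named, and the 3 most correlated protein-coding genes for each tested member. H2-Ea-ps, Ifi202b, Proz, Tfpi and Serpinb9, and genes given only by level or as listed at 0, are named outside that rule. Some listed genes are not reported here.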

Additional observations from a re-analysis of the deposited data

Results flagged for a closer look

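In 78 groups of 4 libraries (26 genes, each in 3 groups), 2 had a library far from the others by Dixon's criterion, which chance alone does in about 5% of groups. F9 was at 1.31 RPKM in 2 h replicate 2, against 1.1 to 1.11 in the other 2 h libraries. Mcfd2 was at 11.4 RPKM in 24 h replicate 2, against 9.96 to 10.1 in the other 24 h libraries. Neither is among the 9 members.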

How the results depend on the processing

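Of 459 member values under 22 other settings, 448 kept their side of the threshold, 8 newly passed and 3 no longer passed. In 9 the sign differed from that reported, all for differences called in neither fit: F7 and Thbd at 2 h against naive and F10 at 24 h against naive. Members called higher at 2 h against naive were 1 as reported and 2 with median-ratio scaling and with voom (Plau added), and 1 to 2 with a library left out. At 24 h against naive 0 were called higher as reported, 1 with the filter at 5 RPKM (F7), and 0 to 1 with a library left out. At 24 h against 2 h 1 was called higher as reported (F7), 0 with median-ratio scaling, and 0 to 1 with a library left out. With the filter at 5 RPKM, which tests fewer genes, 1544 of all genes were called lower at 2 h against naive (2514 as reported), and 2307 higher and 1616 lower at 24 h against 2 h (3534 and 2458). The filter at 5 RPKM left Procr untested, so 2 members were called lower at 24 h against naive. Of the named further genes, F9 and Lrp1 at 2 h against naive, Plgrkt at 24 h against naive and Anxa2 at 24 h against 2 h, none of them called, changed sign in 15 values, among them Lrp1 (0.04) and Anxa2 (-0.06) under voom and Anxa2 under median-ratio scaling (-0.04).

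With the replicate number as a block, the members called higher and lower were 1 and 1 at 2 h against naive, 0 and 3 at 24 h against naive, and 1 and 4 at 24 h against 2 h, as without it. Same-numbered libraries share only a number: 0 of 12 pairs had a correlation of deviations over 0.1, and 1 library correlated best with its own number. Among named further genes the block ended the call of Anxa5 at 2 h against naive (adjusted p = 0.0571).

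Depth limits F3, Serpinb2 and Procr. The 2 h libraries, and to a lesser degree the 24 h libraries, differ from naive in H2-Ea-ps. With 4 libraries a group, differences such as those of Thbd cannot be bounded closely.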
